A study of Mus musculus with 12 samples.

Results

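The 10 genes described here are the TEAD transcription factors Tead1, Tead2 and Tead4, the coactivators Yap1 and Wwtr1, the kinases Lats1 and Lats2, the upstream proteins Amot and Nf2, and Ccn2, a gene known to be switched on by YAP and TEAD. They were chosen by name as members of the Hippo pathway, out of 18194 genes named on the Affymetrix Mouse Genome 430 2.0 array, and all 10 were measured. The choice was made with earlier results of these data known, so their medians set beside those of all genes are descriptions only. Whole preimplantation embryos of ICR mice were compared in 6 groups of 2 arrays, and no group carried a genetic change. Untreated control embryos had 2 cells when collected at day 1.5 and between 4 and 8 at day 2.5, and were morulae to blastocysts at day 3.5. Embryos treated with 20 µM U0126, an inhibitor of the kinase MEK and so of the ERK pathway, were collected at day 2.5, arrested with 4 cells. Embryos released from that arrest were collected at day 3.5, with 8 cells, and at day 4.5, at the morula to blastocyst stage. Equal days are therefore not equal stages: released embryos of day 3.5 stood at an earlier stage than control embryos of day 3.5. The sources do not give the number of embryos per array, and the lineages of the embryo were not separated, so fewer cells of a type and less RNA per cell cannot be told apart.

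In the Hippo pathway the kinases LATS1 and LATS2, helped by scaffold proteins such as NF2 and AMOT, phosphorylate YAP1 and its paralogue TAZ (the product of Wwtr1) and keep them out of the nucleus. Where the kinases are inactive, YAP1 and TAZ enter the nucleus and act with a TEAD factor on target genes. In the preimplantation embryo this decision separates outer from inner cells: in outer, polarised cells YAP1 and TEAD4 support Cdx2 and the trophectoderm, and in inner cells AMOT and NF2 support LATS activity. Most of this control acts on the proteins, which these arrays do not measure.

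Levels are given as log2(intensity + 1) of 1 probe set per gene, with replicate 1 first, and differences as log2 differences ± standard error from 1 limma model over all 12 arrays (9930 genes tested, Benjamini-Hochberg adjusted p, 2 arrays per group). A level of 5 on at least 2 arrays was required for a test, and all 10 genes met it. Tead1, Lats2 and Ccn2 lay under 5 on both day 1.5 arrays, so their differences from day 1.5 are also given as at least the distance from 5. Replicate arrays correlated at r between 0.955 and 0.980, against 0.516 for the least alike arrays. Of 11 measured cumulus and granulosa cell markers, 0 reached 5 on any array (highest 3.97, summed intensity 75.7 to 97.2), and of 5 sperm markers, 0 did. Of 5 oviduct markers 1, and of 4 blood or immune markers 1, reached 5 on some arrays. The blood and immune markers summed to 110 to 175 on the U0126 arrays, against 32.3 to 68.7 elsewhere. Of these, Cd68 alone reached 5, at 7.29 and 6.50 under U0126, where Ptprc, Hba-a1 and Lyz2 lay between 2.85 and 3.09. The part of these markers in the results was not tested. The 7 trophectoderm markers summed to an intensity of 1100 to 1550 at day 1.5, 4370 to 4760 in day 2.5 controls and 1480 to 1810 under U0126. They summed to 15900 to 28500 in day 3.5 controls, 18200 to 18300 in released embryos of day 3.5 and 41900 to 48500 in those of day 4.5. These sums rest on the highest markers. Tfap2c alone reached 5 at day 1.5 (10.54 and 10.01) and was highest under U0126 (10.44 and 10.35). Krt8 was highest in day 3.5 controls and in both released groups. The 4 measured 2-cell markers all reached 5 on both released day 3.5 arrays and summed to 1890 to 3420 there, against 3530 to 5810 at day 1.5, 79.7 to 153.0 in day 2.5 controls, 396 to 765 under U0126 and 24.3 to 34.3 in day 3.5 controls. On these 4 markers the released day 3.5 arrays thus stood apart from both later control groups, and the part of these markers in the results was not tested. Over all genes tested, 0.312% passed between released day 3.5 embryos and day 3.5 controls, and 12.7% against day 2.5 controls.

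Tead4, the TEAD factor required for the trophectoderm, stood at 8.22 and 7.07 in day 1.5 controls, 10.59 and 9.55 in day 2.5 controls, 9.30 and 8.95 in day 3.5 controls, 8.40 and 8.14 under U0126, 10.01 and 8.98 in released embryos of day 3.5, and 8.00 and 7.84 in those of day 4.5. The day 2.5 controls were the highest group and did not overlap the day 1.5 or U0126 arrays, while both released day 4.5 arrays lay below every control array of day 2.5 and day 3.5. Tead4 rose by 2.42 ± 0.47 from day 1.5 to day 2.5 (adjusted p = 0.00131) and was lower under U0126 than in day 2.5 controls, with a difference of -1.80 ± 0.47 (adjusted p = 0.0318). That second call was lost without replicate 1 of the day 2.5 controls (adjusted p = 0.21) and without replicate 1 (0.0803) or replicate 2 (0.101) of the U0126 embryos. The drop of released embryos from day 3.5 to day 4.5 measured -1.58 ± 0.47 and missed the threshold (adjusted p = 0.0512), but passed it with the replicate number as a block (0.00797). In the same blocked fit 3 further Tead4 differences passed. These were day 3.5 against day 2.5 controls (-0.95, adjusted p = 0.0403 against 0.178), released day 3.5 against U0126 (1.22, 0.0122 against 0.0783) and released day 4.5 against day 3.5 controls (-1.20, 0.0369 against 0.176). The other tested probe set of Tead4, 1460683_at, did not show 3 of these differences of the released embryos. It measured -0.13 for released day 3.5 against U0126 and -0.29 for the released step to day 4.5. Released day 4.5 against day 3.5 controls measured 0.02, and none of these passed. On this set released day 3.5 embryos were below day 2.5 controls (-1.04, adjusted p = 0.0486), where the set used measured -0.58 (0.469).

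Tead1, a broadly expressed relative of Tead4, stood at 3.60 and 4.64 at day 1.5, 8.06 and 8.14 at day 2.5, 8.09 and 8.01 at day 3.5, 6.84 and 6.46 under U0126, 7.69 and 7.61 after release at day 3.5, and 8.12 and 8.36 at day 4.5. After day 1.5 every array without U0126 lay at or above 7.61, and the U0126 pair sat alone between these and day 1.5. The rise from day 1.5 to day 2.5 measured 3.98 ± 0.33 (at least 3.10 from a level of 5, adjusted p = 4.25e-06). The U0126 embryos differed from day 2.5 controls by -1.45 ± 0.33 (adjusted p = 0.0181), a call lost without replicate 1 (0.0828) or replicate 2 (0.0871) of those controls or replicate 2 of the U0126 embryos (0.0715). After release Tead1 was higher than under U0126 by 1.01 ± 0.33 (adjusted p = 0.0446), and leaving out any 1 array other than those of day 1.5 took this above the threshold (0.0576 to 0.178).

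Tead2, a further TEAD factor, had another pattern. Its levels were 5.31 and 5.12 at day 1.5, 3.84 and 3.74 at day 2.5, 6.29 and 4.69 at day 3.5, 4.70 and 3.90 under U0126, 5.53 and 5.40 after release at day 3.5, and 7.69 and 6.88 at day 4.5. It was lowest at day 2.5, where Tead1 and Tead4 were high, and both arrays of released day 4.5 embryos lay above all others. From day 1.5 to day 2.5 Tead2 fell by 1.43 ± 0.48 (adjusted p = 0.0277), of which 0.21 lay above a level of 5. From day 2.5 to day 3.5 it rose by 1.70 ± 0.48 (at least 0.49, adjusted p = 0.0304) and, in released embryos, from day 3.5 to day 4.5 by 1.82 ± 0.48 (adjusted p = 0.0327). The first and the last of these calls were lost without any 1 array of the groups compared (adjusted p of 0.0761 to 0.108 and 0.0723 to 0.185). The rise to day 3.5 was lost without replicate 1 (0.101) or replicate 2 (0.12) of day 2.5 or replicate 1 of day 3.5 (0.253, with the difference at 0.90). With the block, 2 more Tead2 differences passed, released day 3.5 against U0126 (1.16, adjusted p = 0.0315 against 0.098) and released day 4.5 against day 3.5 controls (1.79, 0.0172 against 0.0577).

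Yap1, which encodes the main coactivator, was highest at day 1.5. Its levels were 12.59 and 12.81 at day 1.5, 10.41 and 10.39 at day 2.5, 9.71 and 9.44 at day 3.5, 10.90 and 10.56 under U0126, 10.11 and 9.73 after release at day 3.5, and 10.02 and 9.91 at day 4.5. Both day 1.5 arrays lay clearly above the other 10, and the U0126 arrays came next. The fall from day 1.5 to day 2.5 measured -2.30 ± 0.26, or 4.93-fold (adjusted p = 3.09e-05), and the U0126 embryos were lower than day 1.5 embryos by nearly as much, -1.97 ± 0.26 (adjusted p = 0.00013). Between U0126 embryos and day 2.5 controls the difference was 0.33 ± 0.26 and missed the threshold (adjusted p = 0.453). Smaller falls followed in controls from day 2.5 to day 3.5, -0.82 ± 0.26 (adjusted p = 0.0444), and from U0126 to released day 3.5, -0.81 ± 0.26 (adjusted p = 0.0404). The former was lost without any 1 array of the control groups of day 2.5 and day 3.5 or of the released groups (0.0528 to 0.184). The latter was lost without any 1 array of those same groups or replicate 1 of the U0126 embryos (0.0517 to 0.22).

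Wwtr1, which encodes TAZ, varied least of the 10 genes on the probe set used, between 8.15 and 9.43 over all 12 arrays. Its levels were 8.68 and 8.88 at day 1.5, 9.43 and 9.28 at day 2.5, 8.55 and 8.94 at day 3.5, 8.60 and 9.22 under U0126, 8.96 and 8.85 after release at day 3.5, and 8.54 and 8.15 at day 4.5. The day 2.5 controls were the highest pair and the released day 4.5 arrays the lowest. Released day 4.5 embryos were below day 2.5 controls by a difference of -1.01 ± 0.29 (adjusted p = 0.0181, in a comparison that 41.2% of all genes passed). No other comparison named here passed on this probe set. Day 2.5 differed from day 1.5 by 0.57 ± 0.29 (adjusted p = 0.118), and U0126 from day 2.5 controls by -0.44 ± 0.29 (adjusted p = 0.365). Another probe set of the gene, described below, did change.

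The promoters of the coactivators are shown because Yap1 and Wwtr1 were the members whose promoter windows held GGAATG, the short sequence that TEAD factors bind. The windows are the 250 bases before the annotated start, from RefSeq on GRCm38.p6, written 5′ to 3′ on the gene's strand with the matched bases in capitals. The search covered both strands (GGAATG or CATTCC). The Yap1 window is chr9:8004597-8004846 (minus strand), with the match beginning 141 bases before the start. The Wwtr1 window is chr3:57575877-57576126 (minus strand), with the match beginning 170 bases before the start. A second annotated start of Wwtr1 has the overlapping window chr3:57575911-57576160, where the same match begins 136 bases before it.
Yap1: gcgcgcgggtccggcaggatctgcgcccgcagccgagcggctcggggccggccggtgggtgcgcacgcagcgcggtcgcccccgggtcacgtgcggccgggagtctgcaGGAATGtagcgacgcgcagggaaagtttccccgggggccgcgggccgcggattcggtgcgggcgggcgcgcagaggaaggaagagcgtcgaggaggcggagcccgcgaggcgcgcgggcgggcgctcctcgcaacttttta
Wwtr1: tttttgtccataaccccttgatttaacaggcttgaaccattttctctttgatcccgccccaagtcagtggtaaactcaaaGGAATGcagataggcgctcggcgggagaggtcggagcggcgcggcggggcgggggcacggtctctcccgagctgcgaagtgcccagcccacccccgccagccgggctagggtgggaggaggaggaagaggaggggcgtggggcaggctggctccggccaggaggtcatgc
Of the 10 genes, 7 were in the promoter table (Tead2, Yap1, Wwtr1, Lats1, Lats2, Amot and Nf2), with 10 windows, and 3 windows of 2 genes held the sequence. Of all 32851 windows of this length, 12.6% held it, and of all 27025 genes with such windows, 14.4% held it in at least 1. The match is a description of these letters and was not compared with any measurement of binding.

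Lats2, a kinase that inactivates YAP1 and TAZ, showed one of the largest rises. Its levels were 2.90 and 4.33 at day 1.5, 8.76 and 8.82 at day 2.5, 8.29 and 8.57 at day 3.5, 6.83 and 7.16 under U0126, 7.82 and 7.97 after release at day 3.5, and 7.39 and 8.46 at day 4.5. The day 1.5 arrays lay under a level of 5, and the U0126 pair lay below every other array of the later groups. The rise from day 1.5 to day 2.5 measured 5.18 ± 0.46 (at least 3.79 from a level of 5, adjusted p = 6.31e-06), and U0126 embryos stood 3.38 ± 0.46 above day 1.5 (at least 2.00, adjusted p = 0.000161). Against day 2.5 controls the U0126 embryos were lower, with a difference of -1.80 ± 0.46 (adjusted p = 0.0282). Without any 1 of the 4 arrays compared, that adjusted p was between 0.0549 and 0.117. No step after the U0126 collection passed the threshold for Lats2.

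Lats1, the related kinase, had its highest levels in arrested embryos and its lowest at day 4.5. The arrays read 6.40 and 6.18 at day 1.5, 7.11 and 7.25 at day 2.5, 6.08 and 6.43 at day 3.5, 7.40 and 7.66 under U0126, 6.58 and 6.47 after release at day 3.5, and 5.33 and 5.06 at day 4.5. The U0126 pair lay above every other array, and the day 4.5 pair below every other. Lats1 rose from day 1.5 to day 2.5 by 0.89 ± 0.25 (adjusted p = 0.0115) and fell from day 2.5 to day 3.5 by 0.93 ± 0.25 (adjusted p = 0.0261). In the treated series it stood 1.24 ± 0.25 above day 1.5 under U0126 (adjusted p = 0.00216), then fell by 1.0 ± 0.25 after release (adjusted p = 0.0142) and by 1.33 ± 0.25 to day 4.5 (adjusted p = 0.00781). Its released day 4.5 level was also below day 3.5 controls, by a difference of -1.06 ± 0.25 (adjusted p = 0.0364). The U0126 and day 2.5 control arrays did not overlap, but their difference of 0.35 ± 0.25 missed the threshold (adjusted p = 0.42).

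Most of the Lats1 calls depended on single arrays. The rise to day 2.5 was lost without replicate 2 of day 1.5 (adjusted p = 0.0547) or of day 2.5 (0.0655). The fall to day 3.5 was lost without replicate 1 (0.0841) or replicate 2 (0.126) of day 2.5 or replicate 1 of day 3.5 (0.186). The fall after release was lost without replicate 2 of U0126 (0.0679) or either released day 3.5 array (0.0532 and 0.08). The step to day 4.5 was lost without replicate 1 of released day 3.5 (0.0643) or replicate 2 of day 4.5 (0.0795). The difference from day 3.5 controls was lost without any 1 array of the day 2.5 or day 3.5 controls or the released groups (0.0542 to 0.31). The call of U0126 against day 1.5 survived the removal of each array, but not a change of probe set. It measured -0.29 with the mean of the probe sets (adjusted p = 0.48), and set 1427679_at called it lower (-1.82 ± 0.52, 0.0145). That set, also part of the mean, reached 5 only on the day 1.5 arrays, so a lower value under U0126 was built in by the filter on level.

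Amot encodes angiomotin, a junction protein that binds YAP1 and activates LATS kinases in inner cells. Its levels were 6.04 and 3.72 at day 1.5, 10.08 and 9.51 at day 2.5, 10.13 and 10.35 at day 3.5, 7.50 and 7.74 under U0126, 9.92 and 10.13 after release at day 3.5, and 9.92 and 9.92 at day 4.5. The U0126 pair was again alone, above day 1.5 and below all 8 other arrays, which lay within 9.51 and 10.35. Amot rose by 4.92 ± 0.57 from day 1.5 to day 2.5 (30.2-fold, adjusted p = 3.95e-05), although the day 1.5 arrays themselves were far apart. Under U0126 it differed from day 2.5 controls by -2.18 ± 0.57 (adjusted p = 0.0316) and from day 1.5 embryos by 2.74 ± 0.57 (adjusted p = 0.00244). The former was lost without any 1 of the 4 arrays compared (0.0693 to 0.167). After release Amot rose by 2.40 ± 0.57 (adjusted p = 0.0108), a call lost without replicate 2 of released day 3.5 (0.0602).

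Nf2, which encodes the scaffold merlin, moved little and late. The arrays read 8.70 and 8.33 at day 1.5, 8.48 and 8.49 at day 2.5, 7.34 and 7.10 at day 3.5, 8.03 and 8.20 under U0126, 8.11 and 7.61 after release at day 3.5, and 7.50 and 7.11 at day 4.5. Both morula to blastocyst groups lay below all other arrays. The fall from day 2.5 to day 3.5 measured -1.27 ± 0.28 (adjusted p = 0.0104) and was lost without replicate 1 (0.0538) or replicate 2 (0.0563) of day 2.5 or replicate 2 of day 3.5 (0.0579). Day 2.5 and day 1.5 differed by -0.03 ± 0.28 (adjusted p = 0.935), and U0126 and day 2.5 controls by -0.37 ± 0.28 (adjusted p = 0.445).

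Ccn2 encodes CTGF, a secreted matrix-associated protein and a standard readout of YAP and TEAD activity. Its levels were 3.96 and 2.88 at day 1.5, 10.12 and 9.88 at day 2.5, 9.02 and 9.19 at day 3.5, 8.12 and 8.52 under U0126, 9.34 and 9.31 after release at day 3.5, and 7.47 and 7.86 at day 4.5. Both day 1.5 arrays lay under a level of 5, both day 2.5 controls were the highest, and the day 4.5 pair lay below every other array after day 1.5. From day 1.5 to day 2.5 Ccn2 rose by 6.58 ± 0.35 (at least 5.0 from a level of 5, adjusted p = 3.04e-07), the largest difference of the 10 genes in any of these comparisons. U0126 embryos were 4.90 ± 0.35 above day 1.5 (at least 3.32, adjusted p = 3.21e-06) and below day 2.5 controls, with a difference of -1.68 ± 0.35 (adjusted p = 0.0121). The latter call was lost without replicate 1 of the day 2.5 controls (0.0818) or replicate 1 of the U0126 embryos (0.0652).

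After release Ccn2 stood 1.01 ± 0.35 above U0126, which missed the threshold (adjusted p = 0.054) and passed it with the block (0.0458). It then fell from released day 3.5 to day 4.5 by 1.66 ± 0.35 (adjusted p = 0.0126), a call lost without any 1 of the 4 arrays compared (0.0538 to 0.0849). In controls the step from day 2.5 to day 3.5 measured -0.89 ± 0.35 and missed the threshold (adjusted p = 0.0926). Released day 4.5 embryos also lay below day 3.5 controls, which are labelled with the same stage, with a difference of -1.44 ± 0.35 (adjusted p = 0.0388). That difference was lost without any 1 array of the day 2.5 or day 3.5 controls or the released groups (0.0569 to 0.278).

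**Figure D1:**
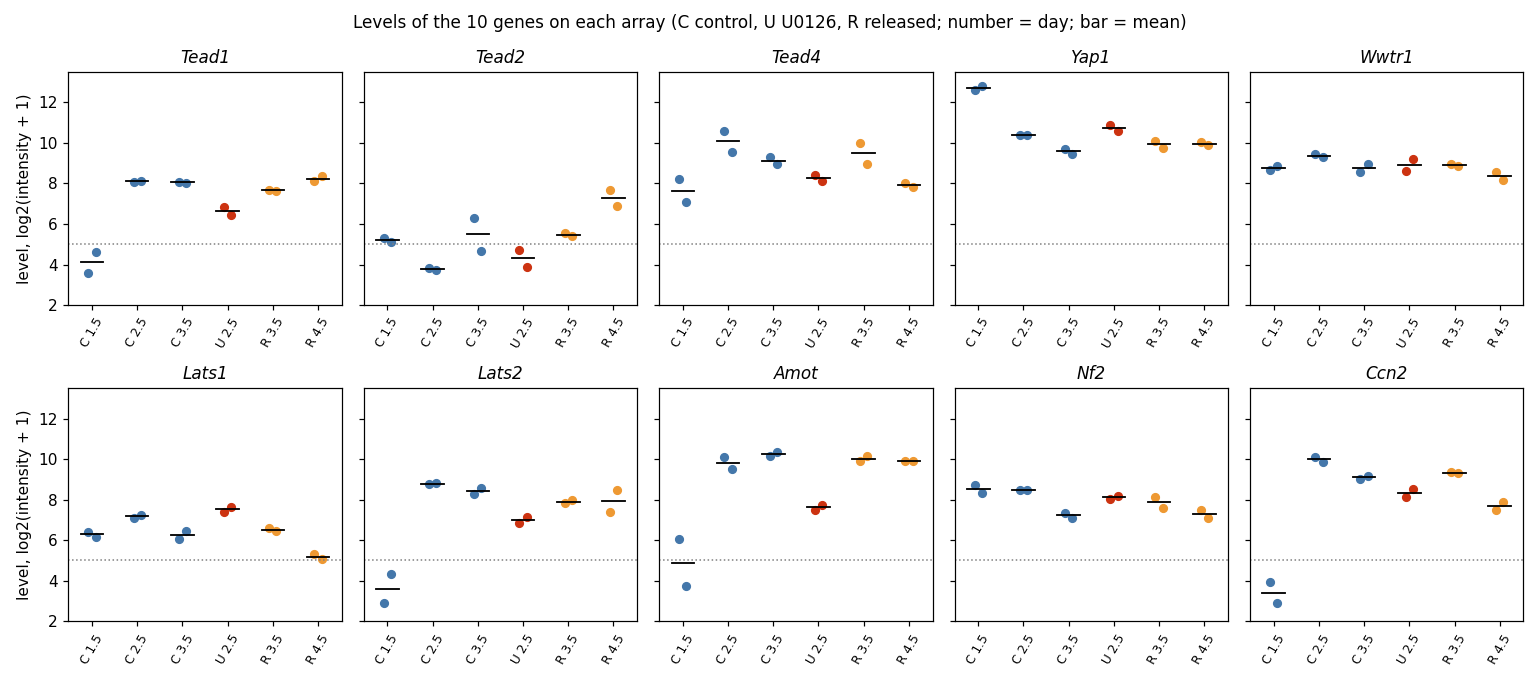
Level of each of the 10 genes, log2(intensity + 1), on every array, with the 6 groups on the horizontal axis, 1 point per array and a bar at the group mean. Tead1, Lats2, Amot and Ccn2 are lowest at day 1.5 and have their U0126 arrays between day 1.5 and the day 2.5 controls, Yap1 is highest at day 1.5, and Wwtr1 spans only 8.15 to 9.43.

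From day 1.5 to day 2.5, the step that follows the main wave of embryonic genome activation, 8 of the 10 genes passed the test, 6 higher (Tead1, Tead4, Lats1, Lats2, Amot and Ccn2) and 2 lower (Yap1 and Tead2). Over all genes tested, 55.4% passed in this comparison, 28.0% higher and 27.4% lower, so a change at this step was common. The median difference of the 10 genes was 1.66, against 0.09 over all genes tested. Tead1, Tead4, Yap1, Lats2, Amot and Ccn2 held this call without any 1 array.

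From day 2.5 to day 3.5 in controls, 4 of the 10 genes passed, Tead2 higher and Yap1, Lats1 and Nf2 lower. Over all genes tested 21.6% passed, 13.4% higher and 8.28% lower, so that 61.7% of calls were higher, or 45.4% after centring each array on its median. Their number was between 0 and 5 when single arrays were left out: 0 without replicate 1 or without replicate 2 of day 2.5, 1 without replicate 1 and 2 without replicate 2 of day 3.5. Differences for the 4 genes with the largest rise at the earlier step were -0.05 for Tead1, -0.36 for Lats2, 0.44 for Amot and -0.89 for Ccn2, none of which passed. With the mean of its probe sets Lats2 did pass (-0.63, adjusted p = 0.0441).

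Under U0126, 5 of the 10 genes were lower than in day 2.5 controls (Tead1, Tead4, Lats2, Amot and Ccn2) and 0 were higher. Over all genes tested 13.9% passed, 9.21% as higher and 4.72% as lower. Calls over all genes were 66.1% higher, or 47.0% with each array centred on its median, and the 5 genes stayed called after that centring. The median difference of the 10 genes was -0.95, against 0.11 over all genes tested. The other 5, Tead2, Yap1, Wwtr1, Lats1 and Nf2, had differences between -0.44 and 0.51. This comparison shares the day 2.5 control arrays with the step from day 1.5. Side by side, that step and the U0126 difference measured 3.98 and -1.45 for Tead1, 2.42 and -1.80 for Tead4, 5.18 and -1.80 for Lats2, 4.92 and -2.18 for Amot, and 6.58 and -1.68 for Ccn2. The count was 0 without replicate 1 of the day 2.5 controls, 2 without replicate 2, and 1 without either U0126 array. With a model of only these 4 arrays it was also 0. That model called 0 of the 9930 genes, while 2245 had an unadjusted p under 0.05 in limma's test.

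Against day 1.5 embryos, 5 genes were higher under U0126, Tead1 by 2.53, Lats1 by 1.24, Lats2 by 3.38, Amot by 2.74 and Ccn2 by 4.90, and Yap1 was lower. Over all genes 50.1% passed, 28.1% higher and 22.0% lower, and the count of 6 was the same without any 1 array. Tead4 was 0.62 ± 0.47 above day 1.5 and missed the threshold (adjusted p = 0.299). Arrested embryos had Tead1, Lats2, Amot and Ccn2 at levels between those of day 1.5 and day 2.5 controls, and the test passed against each, with the same 2 U0126 arrays in both comparisons. Of the 7 trophectoderm markers 4 were higher under U0126 than at day 1.5 and 0 lower (median difference 1.58), and 4 were lower than in day 2.5 controls and 0 higher (median -1.33). Their part in the result was not tested.

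After release, from U0126 to day 3.5, Tead1 and Amot were higher and Yap1 and Lats1 lower, 4 of 10. Over all genes 28.2% passed, 13.7% higher and 14.5% lower. With the replicate number as a block 7 passed, the 3 added being Tead2, Tead4 and Ccn2. Left-out arrays gave between 0 and 5, with 0 without replicate 2 and 1 without replicate 1 of released day 3.5. The count was 2 without any 1 array of the U0126 embryos, the day 2.5 controls or the released day 4.5 embryos. Released day 3.5 embryos have 8 cells, as part of the day 2.5 controls do, but 5 of 7 trophectoderm markers were higher in them than in those controls and 0 lower (median difference 2.48), a part that was not tested. Against these controls 1 of 10 genes differed, Tead2, higher by 1.68 ± 0.48 (at least 0.46, adjusted p = 0.0472), and this was lost without any 1 array other than those of the day 3.5 controls and the U0126 embryos (0.0564 to 0.178). Over all genes 12.7% passed there and 8.61% passed as higher, which was 68.0% of the calls, or 50.9% after centring. Against controls of the same day, 0 of 10 passed limma's test. Over all genes 0.312% passed, 699 of 9930 genes had an unadjusted p under 0.05, and of the 10 genes 1 did, Nf2 at 0.64 ± 0.28 higher.

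From released day 3.5 to day 4.5 Tead2 was higher and Lats1 and Ccn2 lower, 3 of 10. Over all genes 13.7% passed, 7.37% higher and 6.37% lower. The count was 0 without replicate 1 of released day 3.5 or replicate 2 of day 4.5, and 1 without replicate 1 of day 4.5. Against day 3.5 controls the released day 4.5 embryos were lower for 2 genes, Lats1 and Ccn2, with 5.88% of all genes passing, 2.03% as lower, and the block added Tead2 and Tead4 for 4. That count was 0 or 1 when any 1 array of the day 2.5 controls, the day 3.5 controls or the released groups was left out. The test of whether the released step from day 3.5 to day 4.5 differed from the control step from day 2.5 to day 3.5 passed for 0 of 10 genes in limma. Over all genes 2.34% passed, 1772 genes had an unadjusted p under 0.05, and of the 10 genes 1 did.

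**Figure D2:**
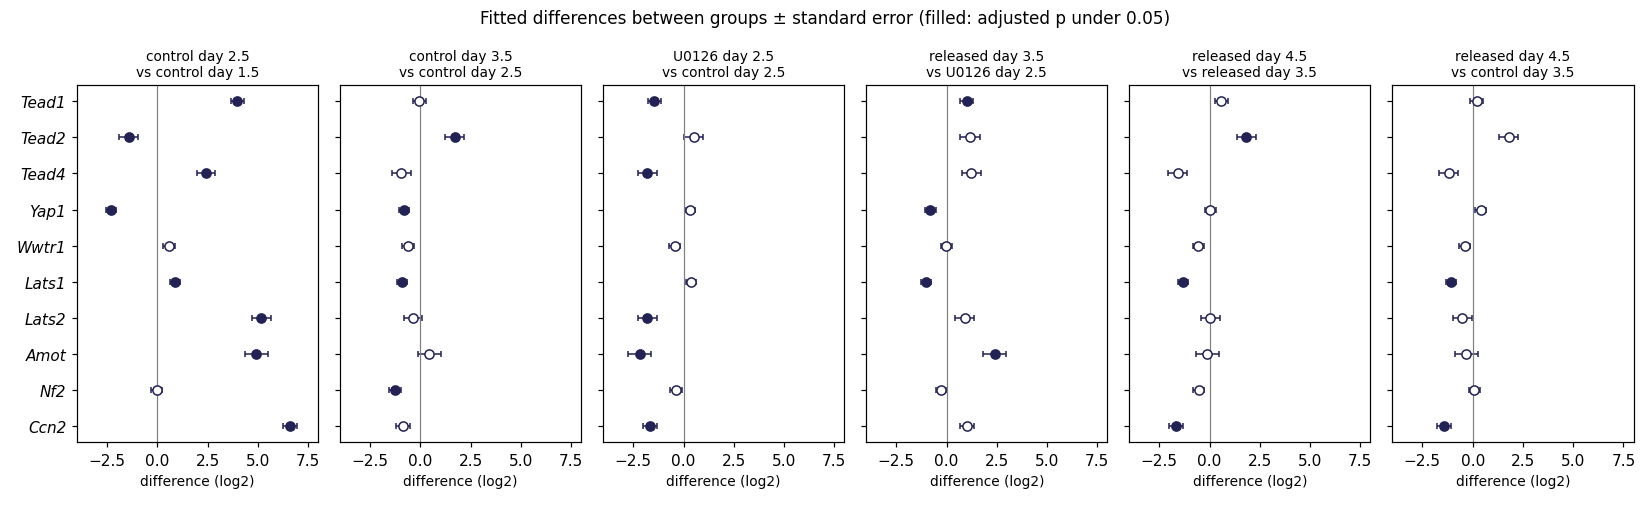
Log2 difference of each of the 10 genes in 6 comparisons between groups, 1 panel each, with bars of 1 standard error and filled symbols where the Benjamini-Hochberg adjusted p was under 0.05. Ccn2 reaches 6.58 from day 1.5 to day 2.5, and under U0126 the 5 called genes lie between -1.45 and -2.18.

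In the order of group means, neighbouring groups are by construction close in level. Of 50 neighbouring gaps over the 10 genes, 42 missed the threshold in the main fit, which does not show that those groups were equal. Of the 8 that passed, 5 had day 1.5 on one side, at the low end for Tead1, Lats2, Amot and Ccn2 and at the high end for Yap1; for Ccn2 the neighbour was released day 4.5, a comparison that 67.1% of all genes passed. The remaining 3 were released day 3.5 over U0126 for Tead1, day 2.5 controls over U0126 for Amot, and day 3.5 controls over released day 4.5 for Lats1. For Tead2, Tead4, Wwtr1 and Nf2 no neighbouring gap passed, and their orders are descriptions only.

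The 10 genes had 26 probe sets named for them alone, of which 21 met the level, and their agreement bears on several values above. Probe sets were fitted separately for this check, which was chosen after seeing the data. Of all 16572 probe sets fitted, 53.0% passed from day 1.5 to day 2.5, 17.7% from day 2.5 to day 3.5, 12.4% for U0126 against day 2.5, 47.2% for U0126 against day 1.5 and 24.7% after release. For Yap1 both sets fell from day 1.5 to day 2.5, the other one by 1.90 ± 0.26 (adjusted p = 0.000118). After release the other set, 1416487_a_at, measured -0.54 and missed the threshold (adjusted p = 0.154), where the set used measured -0.81. From released day 3.5 to day 4.5 its mean went from 7.79 to 6.95, and that of the set used from 9.92 to 9.97. All 4 tested sets of Lats2 rose from day 1.5 to day 2.5, by 2.33 to 5.18. They were lower under U0126 than in day 2.5 controls by differences of -1.11 to -1.80, of which the -1.11 missed the threshold (adjusted p = 0.142). Set 1437101_at, with the rise of 2.33, reached 5 only on the day 2.5 control arrays (5.24 and 5.10). Its rise and its lower value under U0126 (-1.27) were thus built in by the filter on level. The Lats2 sets differed later: from day 2.5 to day 3.5 set 1426156_at fell by 1.45 ± 0.35 (adjusted p = 0.0186), where the set used measured -0.36. At released day 4.5 sets 1425420_s_at and 1426156_at had means of 6.07 and 4.42, below their U0126 means of 6.61 and 5.07, while the set used was above its own (7.93 against 6.99). The set used for Lats2 has the suffix x_at, which marks probes that can also match other transcripts. For Tead4 the other set rose by 2.71 ± 0.29 to day 2.5 and measured -0.91 ± 0.29 under U0126, which missed the threshold (adjusted p = 0.066). Unlike the set used, it placed U0126 embryos above day 1.5 by 1.80 ± 0.29 (adjusted p = 0.000484) and fell from day 2.5 to day 3.5 by 1.35 ± 0.29 (adjusted p = 0.00995).

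For Tead4 after release, as given above, and for Wwtr1, Lats1 and Tead1 the probe sets disagreed, as did those of Nf2 and Yap1 in some comparisons. Wwtr1 set 1417818_at stood at 6.57 and 5.70 at day 1.5, 9.26 and 9.02 at day 2.5, 9.25 and 8.92 at day 3.5, 7.44 and 7.36 under U0126, 8.99 and 8.76 after release at day 3.5, and 9.48 and 9.05 at day 4.5. Its U0126 pair lay between day 1.5 and all other arrays with no overlap, the pattern seen for Tead1 and Amot. It rose by 3.0 ± 0.33 to day 2.5 (adjusted p = 2.8e-05), was lower under U0126 by a difference of -1.74 ± 0.33 (adjusted p = 0.00896) and rose by 1.48 ± 0.33 after release (adjusted p = 0.00868). Of the 3 sets of Wwtr1, 2 showed none of this. Lats1 set 1427679_at read 5.34 and 6.04 at day 1.5 and stayed below 3 elsewhere, apart from 4.88 on 1 U0126 array. It met the level only through the day 1.5 arrays, so a higher value there was built in by the filter. On it Lats1 fell to day 2.5 by 2.79, mostly under a level of 5 (day 1.5 mean 5.69). Tead1 set 1423434_at stayed between 5.15 and 6.07 in all groups and measured 0.12 between U0126 and day 2.5 controls. Which set follows the gene's main transcript was not tested. Of the 4 sets of Nf2, 3 met the level, and at day 3.5 against day 2.5 the other 2 measured -0.10 and -0.74 and missed the threshold. After release Nf2 set 1450382_at measured -1.09 (adjusted p = 0.0428), where the set used measured -0.26. At released day 4.5 Nf2 set 1427708_a_at had a mean of 5.02, against 6.84 in day 3.5 controls. The set used had means of 7.31 and 7.22 there. For Amot 1 of 3 sets met the level. The other Amot sets had means of 3.23 and 3.21, so averaging all sets shrinks its differences. Ccn2 and Tead2 had 1 set each. With the mean of all sets of a gene in place of 1 set, the U0126 calls of Tead1 (-0.67, adjusted p = 0.0986) and Amot (-0.88, 0.0506) and the day 3.5 calls of Lats1 (-0.48, 0.313) and Nf2 (-0.55, 0.149) were lost. So were Tead1 after release (0.29, 0.409) and the Lats1 differences of released day 4.5 from released day 3.5 (-0.66, 0.201) and from day 3.5 controls (-0.53, 0.387). The same averaging called Wwtr1 higher at day 2.5 than at day 1.5 (1.42, 0.000397) and lower under U0126 (-0.89, 0.0287).

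**Figure D3:**
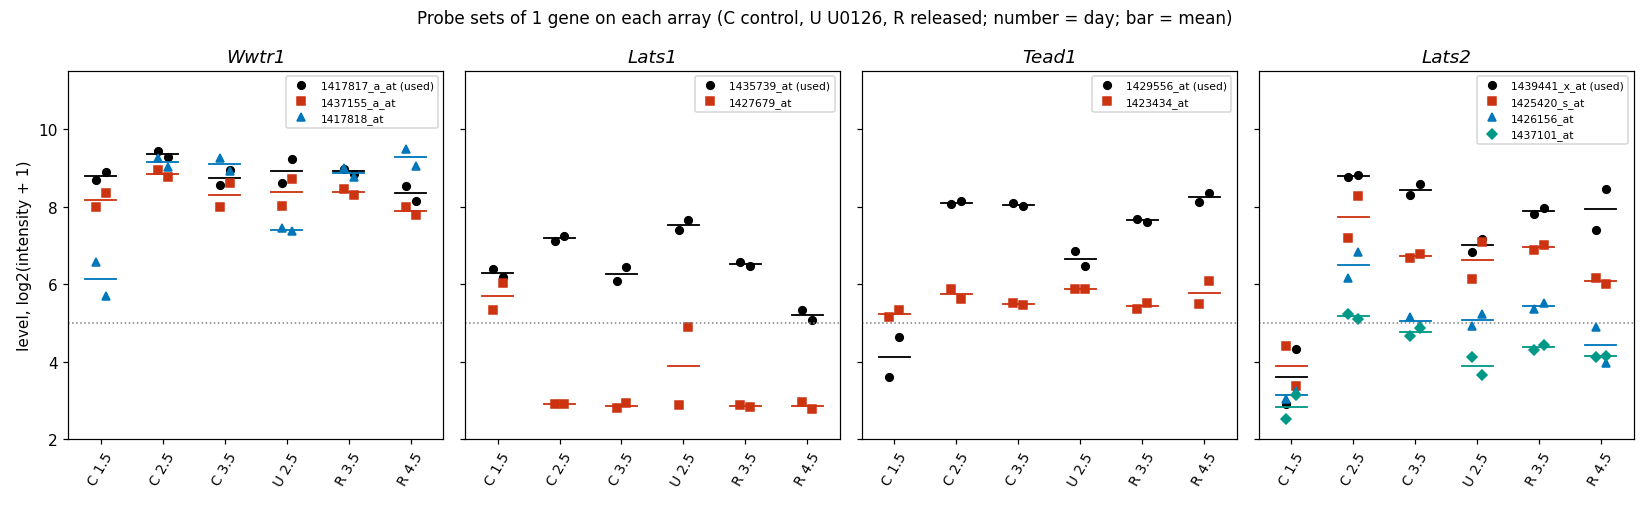
Level, log2(intensity + 1), of the probe sets of Wwtr1, Lats1, Tead1 and Lats2 that met a level of 5, by group, with 1 point per array, a bar at the group mean and a dotted line at 5. The sets of Lats2 all rise from day 1.5 to day 2.5 and lie lower under U0126, while Wwtr1 set 1417818_at, Lats1 set 1427679_at and Tead1 set 1423434_at follow other patterns than the set used.

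Of 34 further genes listed for the pathway, 33 were measured and 25 tested. From day 1.5 to day 2.5, 9 rose and 3 fell. By group, 1 of 3 TEAD family members and cofactors rose, 3 of 9 core kinases and adaptors rose and 1 fell, 2 of 8 junctional and upstream regulators rose and 2 fell, and 4 of 7 genes known as YAP and TEAD targets rose (Ccn1, Amotl2, Cdx2 and Gata3). Over all genes 28.0% were higher and 27.4% lower. Those with the largest fitted differences were Amotl2, a relative of Amot (4.62 ± 0.36, at least 3.84 from a level of 5), and Cdx2, the trophectoderm factor under TEAD4 (4.57 ± 0.35, at least 2.41), both higher and both under 5 at day 1.5, and Limd1, a LIM protein that restrains LATS (-3.33 ± 0.42), and Taok3, a kinase upstream of the core (-3.27 ± 0.46), both lower. From day 2.5 to day 3.5, 5 rose and 2 fell, against 13.4% and 8.28% of all genes, but 5 rose and 6 fell with the block, and 5 and 5 after median centring. The named ones were Gata3, another trophectoderm factor (2.84 ± 0.42), and Vgll3, a TEAD cofactor (2.42 ± 0.50, at least 1.20 from a level of 5), and the lower Mob1b, the LATS adaptor (-1.64 ± 0.30), and Taok1 (-1.60 ± 0.33). The calls of Vgll3 (0.0563 and 0.0845) and Taok1 (0.0611 and 0.0885) were lost without replicate 2 of day 2.5 or replicate 1 of day 3.5, and that of Mob1b without the latter (0.0521). Without that latter array 2 rises and 0 falls were left in all. The mean of its probe sets gave -0.66 for Mob1b at this step (adjusted p = 0.164).

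Under U0126, 2 of the 25 were higher than in day 2.5 controls and 5 lower (8 with the block), against 9.21% and 4.72% of all genes. The lower ones were 3 of the 7 targets (Cdx2, Amotl2 and Ccn1), the cofactor Vgll4 and the kinase Map4k4, and both higher ones were upstream regulators. Ccn1 (-1.37 ± 0.39, adjusted p = 0.0428), Vgll4 (-1.55 ± 0.44, 0.0409) and Map4k4 (-1.36 ± 0.34, 0.0256) are named here after their values were seen. With replicate 1 of the day 2.5 controls left out, 0 were higher and 1 lower, and without replicate 2 of these controls or of the U0126 embryos 2 were lower. Amotl2 counts as a target and as a regulator. Cdx2, at 7.69 and 7.13 in day 2.5 controls and 4.51 and 4.34 under U0126, had the largest difference, -2.99 ± 0.35 (a fall of at least 2.41 to a level of 5, adjusted p = 0.00135), and kept its call without any 1 array. Amotl2 was lower as well (-1.63 ± 0.36, adjusted p = 0.0161), a call lost without either day 2.5 control array (0.106 and 0.0531) or replicate 2 of the U0126 embryos (0.0735). Limd1 (1.46 ± 0.42, adjusted p = 0.0438) and the cadherin Fat1 (1.30 ± 0.30, adjusted p = 0.0181) were higher. Limd1 lost its call with arrays centred on the median (0.0771) and without any 1 array other than those of day 1.5 and replicate 2 of the day 2.5 controls (0.0542 to 0.296). Fat1 lost its call without replicate 1 of the day 2.5 controls (0.138) or of the U0126 embryos (0.0927). Against day 1.5 the U0126 embryos had 10 genes higher and 4 lower, where 28.1% and 22.0% of all genes were, with Amotl2 (2.99 ± 0.36, at least 2.22) and Mob1b (2.40 ± 0.30) at the one end and Taok3 (-2.82 ± 0.46) and Wwc2, the relative of the scaffold KIBRA (-2.66 ± 0.33), at the other. The higher count was 6 without replicate 1 of the U0126 embryos, and Mob1b lost its call with the mean of its probe sets (0.70, adjusted p = 0.0926).

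After release 6 of the 25 rose from U0126 to day 3.5 and 1 fell, with 2 rises left without replicate 2 of U0126, 3 without either released day 3.5 array and 4 without either day 3.5 control. Over all genes 13.7% rose and 14.5% fell, and with the block 8 and 2 of the 25 did. Cdx2, at 9.46 and 8.91 on the released arrays, rose by 4.76 ± 0.35 (at least 4.19) and Gata3 by 3.80 ± 0.42, and cyclin D1 (Ccnd1) fell by 1.57 ± 0.40 (0.88 of it above a level of 5, adjusted p = 0.0151), a call lost without replicate 1 of U0126 (0.0842) or of released day 3.5 (0.0923). Ccn2 stood near its day 3.5 control level in these same embryos (9.34 and 9.31 against 9.02 and 9.19). Against day 2.5 controls 4 were higher and 2 lower (2 higher without replicate 1 of these controls or either released day 3.5 array), where 12.7% of all genes were called and 8.61% were higher, among them Gata3 (2.48 ± 0.42), Cdx2 (1.77 ± 0.35), Mob1b (-1.65 ± 0.30) and Taok1 (-1.27 ± 0.33). The calls of Cdx2 (0.0858 and 0.0708) and Mob1b (0.0616 and 0.0515) were lost without replicate 2 of the day 2.5 controls or replicate 1 of released day 3.5, and that of Taok1 without any 1 array of either group or of released day 4.5 (0.0535 to 0.195).

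From released day 3.5 to day 4.5, Vgll3 and Gata3 rose and 0 genes of the 25 fell, against 7.37% and 6.37% of all genes; with the block 4 rose and 2 fell. Vgll3 stood at 2.92 and 3.13 at day 1.5, 4.00 and 3.55 at day 2.5, 6.86 and 5.53 at day 3.5, 3.04 and 3.10 under U0126, 4.36 and 5.08 after release at day 3.5, and 8.40 and 9.74 at day 4.5. The day 4.5 arrays lay above all others, as they did for Tead2. The step to day 4.5 measured 4.35 ± 0.50 (adjusted p = 0.000761), with 1 of the day 3.5 arrays under 5, and against day 3.5 controls released day 4.5 embryos were 2.88 ± 0.50 higher (adjusted p = 0.00996), the latter lost without replicate 2 of day 3.5 (0.117) or of day 4.5 (0.091). Gata3 rose by 1.49 ± 0.42 (adjusted p = 0.0417), a call lost without any 1 array of day 1.5, released day 3.5 or day 4.5 (0.0557 to 0.184).

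**Figure D4:**
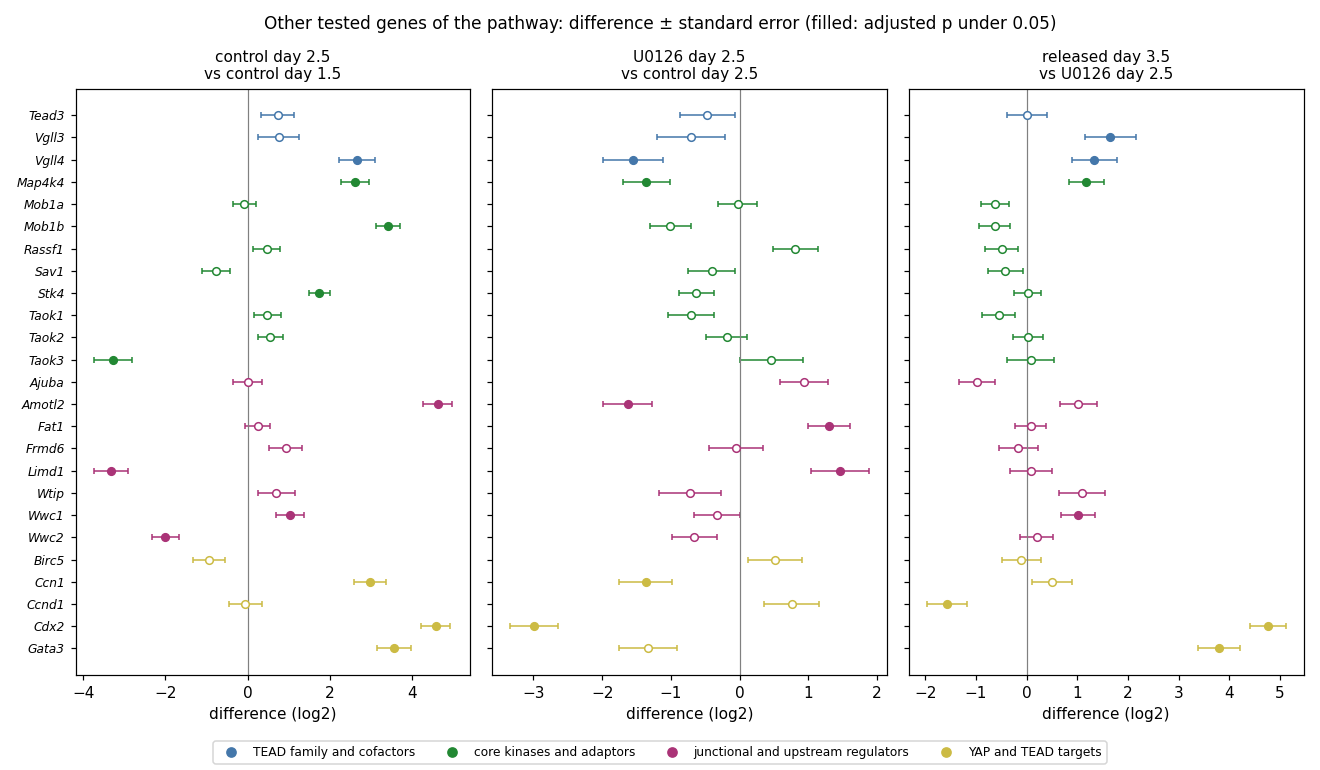
Log2 difference of each of the 25 other tested pathway genes in 3 comparisons, 1 panel each, with bars of 1 standard error, colours for the gene group and filled symbols where the adjusted p was under 0.05. Cdx2 is higher at day 2.5 than at day 1.5 (4.57), lower under U0126 (-2.99) and higher after release (4.76).

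The genes most like each member over the 12 arrays are given by Pearson's r of log2 levels, as a description: the points share the same 12 arrays and 6 groups, and most of the variation is between stages. For Tead1 they were Sik3 (0.988) and Etv3 (0.987), and Sik3 was also the nearest gene to Lats2 (0.985), followed by Ankrd13c (0.982). Amot was nearest to Calcoco2 (0.991) and Lasp1 (0.986), and Ccn2 to Gpd2 (0.989) and Gk5 (0.982). Yap1 lay nearest to Cacna1h and Peak1 (0.986 each). Lats1 lay nearest to Timm23 (0.988) and Trim43a (0.978), Nf2 to Plcd4 (0.963) and Xylb (0.950), and Tead2 to Tcta (0.959) and Rab11fip4 (0.957). The nearest genes were less close for Tead4, with Sgce (0.935) and Gulo (0.931), and for Wwtr1, with 1600010M07Rik (0.921) and Tmigd1 (0.890).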

How the data were processed

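Messenger RNA of ICR mouse embryos was hybridised to 12 Mouse Genome 430 2.0 arrays (Affymetrix), and the labels set 6 groups of 2. The deposited values are linear intensity values per probe set; the submitters' processing notes name GCRMA, and the design text names GCOS 1.2 and GeneSpring 7.3. Other steps of the authors are not given in the sources used. Per the labels' protocols, 0.1 µg of total RNA was amplified, which can distort levels.

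Values were taken as log2(intensity + 1), with the probe set of the highest mean for each of 18194 named genes. Genes at 5 or more on at least 2 arrays (9930) entered limma 3.58.1 (R 4.3.3; lmFit and eBayes, 6 residual and 4.51 prior degrees of freedom), with 1 mean per group over all 12 arrays. A Benjamini-Hochberg adjusted p under 0.05 was a call. The code was tested on simulated data. The number of arrays limits the precision: the median standard error of a difference between 2 groups was 0.348.

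The design text names separate experiments, and the labels number the arrays of each group 1 and 2. Deviations of same-numbered arrays correlated at 0.125 to 0.417 in all 15 pairs of groups, so the numbers may mark pairs. The main fit, which gave the calls, left this pairing out, and the fit with the replicate number as a block is an alternative. With the block 7 differences of the members passed that had missed the threshold in the main fit, and 0 calls were lost. Whether these 7 count as missed or passed depends on that choice. Replicates are otherwise only known as separate samples, so p-values measure the spread between them. The alternatives were other pseudocounts, filters, centring, the block, the mean of probe sets, a mean-variance trend, a fit of only the arrays compared, each array left out, and, added later, each probe set on its own.

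Named were all members, their 2 nearest genes by r, and, of 34 other pathway genes, the 2 largest called differences in each direction per comparison, Vgll3 and Cdx2 with array values. The members and lists were chosen with earlier results of these data known.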

Additional observations from a re-analysis of the deposited data

How the results depend on the processing

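Of 33 called differences of the 10 genes, 11 kept their call and direction under all 21 planned settings, and 12 of 67 uncalled ones passed under at least 1. The cause of each change below was not tested unless the setting itself shows it, such as fewer samples or more genes tested. With 1 array left out, the number of the 10 genes called lay between 6 and 8 from day 1.5 to day 2.5, 0 and 5 from day 2.5 to day 3.5, 0 and 5 for U0126 against day 2.5, 0 and 5 for released day 3.5 against U0126, 0 and 1 against day 2.5 controls, 0 and 4 for the released step to day 4.5, and 0 and 2 for released day 4.5 against day 3.5 controls. A lone array is assumed there to vary like the other groups. A fit of only the arrays compared called 1 gene from day 2.5 to day 3.5, 0 for U0126 against day 2.5, 1 for released day 3.5 against U0126 and 0 for released day 4.5 against day 3.5 controls. With no filter on level the counts were 2 for U0126 against day 2.5, 0 for released day 3.5 against day 2.5 controls, which was also 0 with a pseudocount of 16, and 1 for released day 4.5 against day 3.5 controls, which was also 1 with the mean of the probe sets. The replicate block gave 7 for released day 3.5 against U0126 and 4 for released day 4.5 against day 3.5 controls, and changed no call of the 10 genes beyond the 7 given in the report.

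With the probe set some differences turned direction and others were lost. From day 1.5 to day 2.5 Lats1 measured -0.95 as the mean of its sets and -2.79 on set 1427679_at, and for U0126 against day 1.5 -0.29 and -1.82. That set reached a level of 5 only at day 1.5, so its negative values against day 1.5 were built in by the filter on level. On the same set, under 5 in the later groups, Lats1 measured 0.01 for the released step to day 4.5 and -0.00 against day 3.5 controls, which is no change in either. Tead1 set 1423434_at measured 0.12 for U0126 against day 2.5 and -0.43 after release, and both missed the threshold. Wwtr1 set 1417818_at measured 1.48 after release, where the set used measured -0.01.

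Over all genes, the block called 2018 against 1257 for released day 3.5 against day 2.5 controls, 2165 against 1365 for the released step to day 4.5, 1017 against 584 for released day 4.5 against day 3.5 controls and 615 against 232 for the difference between steps. A fit of only the arrays compared called 0 against 1384 for U0126 against day 2.5, 1381 against 2799 for released day 3.5 against U0126, 313 against 584 for released day 4.5 against day 3.5 controls and 13 against 31 for the same-day comparison, where a pseudocount of 16 gave 20 and no filter 2. Leaving out 1 array gave 677 to 2392 calls from day 2.5 to day 3.5 (2148 with all), 409 to 1389 for U0126 against day 2.5 (1384), 1630 to 2888 for released day 3.5 against U0126 (2799), 268 to 1483 against day 2.5 controls (1257), 321 to 1560 for the released step (1365), 84 to 677 against day 3.5 controls (584), 1 to 46 for the same-day comparison (31) and 30 to 317 for the difference between steps (232). Median centring moved the share of calls that were higher from 43.5% to 56.2% for the difference between steps, beside the shifts given in the report. It moved the median difference of all genes by between -0.21 and 0.16, and made calls of Tead4 for the released step (adjusted p = 0.0305) and of Tead2 for released day 4.5 against day 3.5 controls (0.0381). Signal near background limits differences from groups under a level of 5.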
